A study of Mus musculus with 24 samples.

Results

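The comparison described here asks what dosing with di(2-ethylhexyl) phthalate (DEHP) on top of dibutyl phthalate (DBP) did to the small RNA carried by mouse cauda epididymosomes. The 6 libraries labelled DBP plus DEHP were set against the 6 labelled DBP, which makes 12 of the 24 libraries of the study, chosen by their treatment label alone. Both groups were male C57BL/6J mice aged 7 to 8 weeks, dosed from osmotic pumps for 6 weeks. The daily dose of DBP was 2.5 mg/kg in both groups, and the DBP plus DEHP group received as much DEHP again, so the total phthalate dose was 5 against 2.5 mg/kg/day. The remaining 12 libraries were 6 from vehicle controls given 50% DMSO and 6 from mice given DEHP at that dose without DBP, and they entered the fits for their spread and for the contrast of DEHP against control. In every group libraries 1 to 3 were run on sequencing lane 6 and libraries 4 to 6 on lane 7. The labels do not say whether a library came from a single mouse or from a pool, so the p-values measure the spread between these libraries. The DBP libraries held 9.84 to 14.7 M (M for 1000000) reads over 6 RNA classes and the DBP plus DEHP libraries 9.49 to 12.1 M. A class labelled otherRNA, counted apart, held 0.269 to 0.504 M and 0.329 to 0.539 M reads.

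Phthalates are diesters used as plasticisers, and DBP carries straight butyl chains where DEHP carries longer branched chains. Epididymosomes are vesicles shed by the epididymal epithelium into the duct, where maturing sperm take up part of their cargo. That cargo is rich in fragments of transfer RNA (tRNA) and also holds microRNAs (miRNAs), fragments of ribosomal RNA (rRNA) and sequences that match piwi-interacting RNAs (piRNAs). Read counts give relative abundance, so fewer vesicles that carry an RNA and less of that RNA per vesicle cannot be told apart.

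The sequences printed here belong to entries that the results turn on. For the miRNAs the mature forms are given with the seed, bases 2 to 8, in capitals: the sole miRNA entry past the submitters' criterion (miR-1967), the mature entries with most reads (miR-2137, miR-6538 and miR-3473b), the miRNA whose hairpin had most reads (miR-1961) and a pair of let-7 family members. The sequences are from RefSeq on GRCm38.p6, 5′ to 3′.
miR-1967: uGAGGAUCcuggggagaagaugc
miR-2137: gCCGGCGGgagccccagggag
miR-6538: cGCGGGCUccggggcggcg
miR-3473b: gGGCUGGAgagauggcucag
miR-1961: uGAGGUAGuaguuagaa
let-7c-5p: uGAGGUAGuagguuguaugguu
let-7a-5p: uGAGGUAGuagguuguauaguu
The let-7 members and miR-1961 share the seed GAGGUAG, and the other entries printed share no seed with each other.

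The next set comes from GENCODE M21 transcripts on GRCm38, read along the transcript. The first 4 are units of the rRNA gene type that were lower in the DBP plus DEHP libraries at an unadjusted p under 0.05, printed to show the run of 21 bases they all share, in capitals. The last is a small nucleolar RNA (snoRNA) unit, Gm26132, with the letters ACA followed by 3 bases at its end in capitals.
Gm23799, chr12:56056636-56056755, minus strand: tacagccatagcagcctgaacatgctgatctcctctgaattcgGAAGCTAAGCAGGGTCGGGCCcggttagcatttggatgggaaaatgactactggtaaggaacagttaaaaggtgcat
Gm23957, chr7:66370392-66370481, minus strand: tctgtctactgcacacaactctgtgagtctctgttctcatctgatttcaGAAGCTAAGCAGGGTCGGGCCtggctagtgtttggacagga
n-R5s155, chr7:90293734-90293846, plus strand: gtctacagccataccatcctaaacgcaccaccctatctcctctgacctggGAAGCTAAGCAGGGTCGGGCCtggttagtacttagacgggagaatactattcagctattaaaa
Gm26197, chr14:78311226-78311340, minus strand: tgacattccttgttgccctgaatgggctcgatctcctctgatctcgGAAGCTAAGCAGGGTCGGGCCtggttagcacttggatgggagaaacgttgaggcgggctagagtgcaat
Gm26132, chr8:110923116-110923263, plus strand: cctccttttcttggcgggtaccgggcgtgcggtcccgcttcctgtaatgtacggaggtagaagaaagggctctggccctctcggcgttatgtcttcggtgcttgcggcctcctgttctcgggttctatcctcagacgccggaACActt
The letters ACA with 3 bases after them, read on the transcript strand, end 35 of the 42 annotated Snora transcripts (83.3%), 0 of 98 Snord transcripts and 276 of all 1507 annotated snoRNA transcripts (18.3%).

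No RNA class took a measurably different share of the reads when DEHP was added to DBP. piRNA entries took 49.1% ± 3.96 of the reads (mean ± SD, n = 6) in the DBP libraries and 49.0% ± 4.98 in the DBP plus DEHP libraries. tRNA entries took 36.0% ± 5.47 and 35.8% ± 6.06. Differences are given as DBP plus DEHP minus DBP, with a 95% interval from the exact two-sided permutation test, in which labels were exchanged within lane over 400 arrangements with a smallest possible p of 0.005.

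For piRNA the difference was -0.0759 percentage points (interval -4.58 to 4.60, exact permutation p = 0.98). For tRNA it was -0.233 points (-5.99 to 5.20, exact permutation p = 0.935). These intervals leave room for shifts of several points in the largest classes. miRNA entries went from 5.55% ± 1.08 to 5.51% ± 0.654, a difference of -0.0369 points (-0.919 to 0.843, exact permutation p = 0.905). rRNA went from 4.39% ± 0.950 to 4.55% ± 0.709, or 0.164 points (-0.851 to 1.18, exact permutation p = 0.725). Circular RNA (circRNA) references went from 4.22% ± 1.04 to 4.42% ± 0.763, or 0.196 points (-0.587 to 1.02, exact permutation p = 0.57). Every interval included 0 and the libraries of the groups overlapped in every class.

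Long non-coding RNA (lncRNA) took 0.768% ± 0.0632 and 0.755% ± 0.0756, a difference of -0.0132 points (-0.0934 to 0.0797, exact permutation p = 0.775). The otherRNA class held 3.53 ± 0.887 and 3.66 ± 0.642 reads per 100 reads of the other 6 classes (difference 0.131, interval -0.533 to 0.803, exact permutation p = 0.635). Adjusted by Benjamini-Hochberg over the 7 shares, p was 0.98 for each. Within lane the differences were 0.508 on lane 6 and -0.582 on lane 7 for miRNA, -0.442 and 0.770 points for rRNA, 0.230 and -0.697 for tRNA, -0.593 and 0.441 for piRNA, -0.0437 and 0.0174 for lncRNA, 0.340 and 0.0508 for circRNA, and 0.249 and 0.0126 for otherRNA. Only circRNA and otherRNA kept their direction on both lanes, and 3 libraries a group cannot give a p below 0.1.

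**Figure D1:**
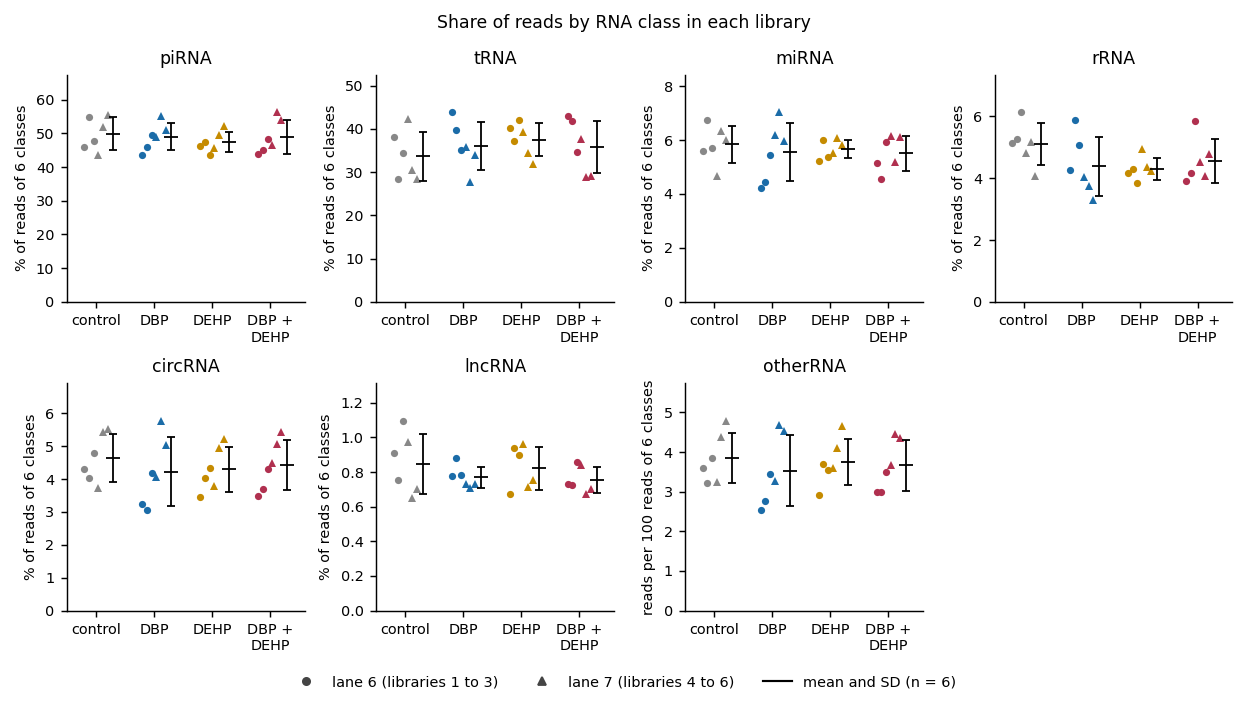
Share of reads (%) taken by each RNA class in every library of the 4 groups, with the mean and SD of each group beside its points; otherRNA is in reads per 100 reads of the other 6 classes. In each panel the DBP and DBP plus DEHP libraries overlap, as with tRNA at 36.0% ± 5.47 and 35.8% ± 6.06.

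The libraries numbered 5 and 6 stood apart from the rest within both groups, and values fitted without them are given beside the results they move most. In these 4 libraries tRNA took 27.7 to 34.0% of the reads, below the 34.7 to 43.8% of the other 8 libraries. piRNA took 51.0 to 56.2% against 43.7 to 49.4%, and circRNA took 5.05 to 5.76% against 3.05 to 4.50%. Each group holds the same number of such libraries. Markers of other cell types were scarce in the 12 libraries together: the erythrocyte list had 6 reads with 2 of its 3 entries at 0, the leukocyte list 79 reads with 1 of 5 at 0, the male germ cell list 33 reads with 1 of 6 at 0, and the liver marker miR-122-5p 12 reads. The epithelial miR-200 family, a marker of the epididymal epithelium, had 87 reads over its 5 entries, so the labelled source could not be checked with these miRNAs. The smooth muscle list, led by miR-145a-5p and miR-143-3p, had 2049 reads and a summed level of 6.24 to 33.9 RPM (reads per M reads of the 6 classes) in the DBP libraries and 4.98 to 28.1 RPM in the DBP plus DEHP libraries.

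No single RNA differed between the groups at an adjusted p under 0.05. Of 7454 features tested over the 6 classes, 0 passed in edgeR's quasi-likelihood test, 0 in DESeq2 and 0 in limma voom, with a smallest edgeR adjusted p of 0.999865, and 284 (3.81%) had an unadjusted p under 0.05 where 372.7 would be the count with no difference. Of 3732 otherRNA features 0 passed in edgeR, DESeq2 and voom, with a smallest edgeR adjusted p of 0.852712 and 200 (5.36%) at an unadjusted p under 0.05. The criterion stated by the submitters, a fold change of at least 1.5 with p under 0.01 (taken here as unadjusted), was met by 47 features, or 0.631% of those tested. Of these, 25 were higher and 22 lower in the DBP plus DEHP libraries. That balance depended on the scaling, with 32 higher and 17 lower under size factors (RLE) and 27 higher and 11 lower under library totals.

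By class, the criterion was met by 1 miRNA entry (higher), 6 tRNA entries (all lower), 3 higher and 3 lower piRNA entries, 1 rRNA unit (lower), 7 higher and 9 lower circRNA references, and 14 higher and 3 lower lncRNAs. In otherRNA it was met by 31 features (0.831%), 14 higher and 17 lower. The groups did not overlap in any library for 6 features of the 6 classes (0.0805%; 2 higher, 0.0268%, and 4 lower, 0.0537%) and 5 of otherRNA (0.134%; 1 higher, 0.0268%, and 4 lower, 0.107%). The 95% interval of the log2 difference had a median half-width of 0.62, and for 4979 of 7454 features (66.8%) it lay inside a 2-fold change either way.

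**Figure D2:**
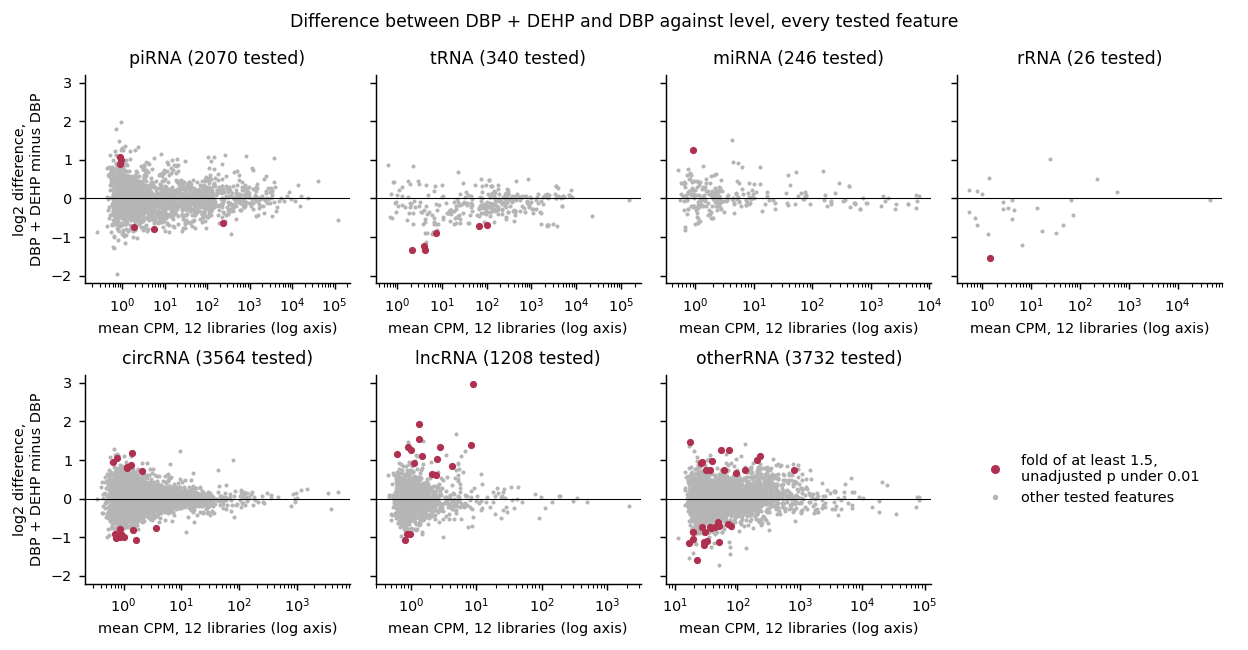
Difference in log2 between DBP plus DEHP and DBP for every tested feature (y axis) against its mean level in CPM on a log axis (x axis); features past the submitters' criterion are in red. The 47 criterion features of the 6 classes lie at both signs and 25 of them had means under 2 CPM in both groups.

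Most criterion features were faint. Levels are given in CPM (counts per M reads) on TMM-scaled library sizes, where otherRNA is scaled on its own reads. Both group means were under 2 CPM for 25 of the 47, and the median criterion feature had 188 reads over the 12 libraries, or 177 in otherRNA. Folds ran from 1.52 to 7.79 in the 6 classes and from 1.52 to 3.01 in otherRNA. In 43 of the 47 and 29 of the 31 the mean of the vehicle controls lay between the means of the DBP and DBP plus DEHP groups. The criterion picks features whose DBP and DBP plus DEHP means lie far apart, so a control mean between them follows largely from that choice. No share over all tested features is given beside these counts, and no conclusion is drawn from them. Of the 29 features named for the smallest p in each class and direction, 10 kept the criterion whichever library was left out, and 6 of 27 still met it without libraries 5 and 6. The sign on lane 6 matched that on lane 7 in all 27 that could be fitted on both. As these features were chosen by p in the fit over both lanes, matching signs follow in part from that choice and are no separate support. Without those libraries the criterion was met by 54 features, of which 7 were among the 47.

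Among the miRNAs, the hairpin mmu-mir-1967 was the sole entry past the criterion, out of 246 tested. Its level was 0.113, 0.627, 0.317, 0.735, 0.903 and 0.522 CPM in DBP libraries 1 to 6 and 0.610, 0.427, 0.808, 0.960, 2.75 and 2.16 CPM in DBP plus DEHP libraries 1 to 6. The highest values were in DBP plus DEHP libraries 5 and 6, and the other 4 lay within the range of the DBP group or just above it. The log2 difference was 1.25 (95% interval 0.46 to 2.05, edgeR adjusted p = 0.999865), on 131 reads in all, and without libraries 5 and 6 the entry was not tested. The hairpin mmu-mir-192, chosen here after its values were seen, had the same shape, with 19.7 and 14.8 CPM in DBP plus DEHP libraries 5 and 6 and at most 1.82 CPM in the other 4, and its log2 difference of 1.52 became -0.04 without libraries 5 and 6.

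The abundant miRNA entries showed no difference larger than the spread between libraries. The hairpin mmu-mir-1961 stood at 6627 ± 3199.9 CPM with DBP and 6933 ± 2279.8 CPM with DBP plus DEHP (SD, n = 6), a log2 difference of 0.07 (interval -0.52 to 0.66). mmu-miR-2137, whose sequence is printed above, stood at 4638 ± 2688 and 3982 ± 1415 CPM (log2 -0.15, standard error 0.41). mmu-miR-3473b stood at 569.8 ± 229 and 514 ± 106 CPM (log2 -0.13, interval -0.66 to 0.39). The labels do not state how reads of a mature form were divided between hairpin and mature entries. The let-7 family, which restrains proliferation genes, summed to 7.89 ± 1.38 RPM with DBP and 7.09 ± 2.13 RPM with DBP plus DEHP, with 0 of 4 tested entries at an unadjusted p under 0.05. The hairpin mmu-mir-6240 and the mature mmu-miR-6538 had intervals of -1.41 to 0.90 and -1.34 to 0.79 in log2, wide enough to hold a change of either sign.

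Entries of the tRNA class leaned lower in the DBP plus DEHP libraries. tRNAs deliver amino acids to the ribosome, and their fragments are a leading cargo of epididymosomes. Of 340 tested entries 226 were lower and 114 higher, with a median log2 difference of -0.13, beside -0.01 over all 7454 features. At an unadjusted p under 0.05 there were 22 lower and 1 higher, or 6.76% against 3.81% over all features (2.19% lower and 1.62% higher), and 0 passed after adjustment. Copies of a tRNA with almost the same sequence compete for reads, so entries are not independent of each other. The lean rested in part on single DBP libraries. Without DBP library 1, 5 entries were lower at that p, whereas without DBP library 4 there were 37. Without DBP library 2 the class median reached 0.01. On lane 6, 40 entries were lower and 8 higher at that p, on lane 7, 3 and 0, and without libraries 5 and 6, 12 and 11.

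By amino acid, 15 of 22 tRNA families had a median log2 difference below 0 and 7 above, and this count was the same under each of the scalings tried. On lane 6 it was 17 and 5, on lane 7 it was 12 and 10, and without libraries 5 and 6 it was 14 and 8. A family median weighs faint and abundant entries alike. Arginine and alanine tRNAs had medians of -0.19 and -0.22, but their summed RPM with DBP plus DEHP was 1.02 and 1.04 times that with DBP. In the other families with a median below 0 this ratio ran from 0.66 to 0.99. Histidine, phenylalanine and glycine tRNAs leaned lower (median log2 -0.69, -0.33 and -0.32), together with isoleucine tRNAs (-0.36). The 3 aspartate entries had a median of 0.28, which stayed between 0.19 and 0.35 whichever library was left out. On lane 6 that median was 0.50 and on lane 7 it was 0.05. Elongator methionine tRNAs had a median of 0.19, but the direction depended on single libraries: it was -0.24 without DBP plus DEHP library 4 and 0.50 without DBP library 4, and voom and the replicate block gave 0.06 and 0.08 with 4 of 8 entries higher. The phenylalanine median was -0.80 on lane 6 and 0.45 on lane 7, -0.02 without DBP library 2 and -0.64 without libraries 5 and 6. None of these families had an entry past the adjusted threshold.

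**Figure D3:**
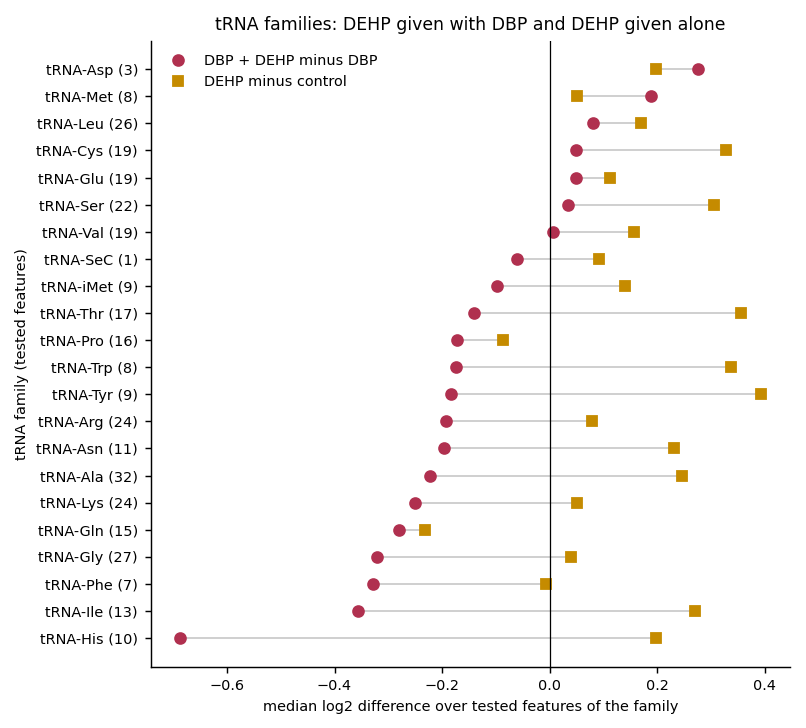
Median log2 difference of the tested entries of each tRNA family for DBP plus DEHP minus DBP and for DEHP minus control. For DBP plus DEHP minus DBP 15 of 22 families lie below 0, and for DEHP minus control 19 lie above 0.

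All 10 histidine tRNA entries were lower with DBP plus DEHP, 5 of them at an unadjusted p under 0.05, where 2.19% of all features were lower at that p. Their summed level was 31171, 26618, 14293, 12493, 19362 and 33972 RPM in DBP libraries 1 to 6, or 22985 ± 8941. It was 13488, 20514, 13048, 14019, 14257 and 16211 RPM in DBP plus DEHP libraries 1 to 6, or 15256 ± 2796. The DBP libraries spread widely, with 1, 2 and 6 above every DBP plus DEHP library and 3, 4 and 5 within or below their range.

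The vehicle controls summed to 13733 ± 5621 RPM of histidine tRNA and the mice given DEHP without DBP to 17215 ± 5227 RPM. The DBP plus DEHP mean was thus nearer to the controls than the DBP mean was. The median log2 difference of the entries was -0.82 on lane 6 and -0.46 on lane 7. The number of entries at p under 0.05 was 0 in 8 of the 12 fits that left out a library (DBP library 1, 2 or 6, or DBP plus DEHP library 1, 3, 4, 5 or 6), 8 or 9 in the other fits, and 0 with the replicate number as a block, 0 with voom and 0 without libraries 5 and 6.

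Glycine tRNAs, among the best known fragments in epididymosomes and sperm, were lower for 25 of 27 entries (median log2 -0.32), with 6 lower at an unadjusted p under 0.05, beside 2.19% of all features, and 4 lower past the criterion, beside 0.295%. That direction was less even under other settings. With voom, with the replicate block, on lane 6 and without libraries 5 and 6, 18 of 27 were lower, as they were without DBP library 6 or DBP plus DEHP library 4. Without libraries 5 and 6 the median was -0.19 and 1 entry was at p under 0.05. The 3 anticodons are described in turn, and differences between them were not tested.

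The 7 TCC entries, with 930370 reads against 607166 for GCC, were all lower (median log2 -0.11), with 0 at an unadjusted p under 0.05. Their summed level ran from 631 to 23358 RPM over the DBP libraries (8490.1 ± 9673) and from 2313 to 10876 RPM over the DBP plus DEHP libraries (5643 ± 3583), so the groups overlapped widely. The TCC median was 0.60 on lane 6, with all 7 higher, and -0.83 on lane 7, with all 7 lower. All 7 were also higher with voom (0.08), with the replicate block (0.09), without DBP library 6 (0.18), without DBP plus DEHP library 4 (0.10) and without libraries 5 and 6 (0.50).

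All 13 GCC entries were lower (median log2 -0.34), and their summed level was 3907, 3726, 3583, 5072, 7781 and 6597 RPM in DBP libraries 1 to 6 and 3971, 3904, 3263, 3549.7, 4099 and 5149 RPM in DBP plus DEHP libraries 1 to 6. On lane 6 the groups had nearly the same values and the higher DBP sums were all on lane 7. The group values were 5111 ± 1734 and 3989 ± 646 RPM, and the entry median was -0.15 on lane 6, -0.53 on lane 7 and -0.20 without libraries 5 and 6.

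Of the 6 CCC entries 4 were lower (median log2 -1.01, or -0.30 without libraries 5 and 6), but the copies that carry nearly all CCC reads were not. tRNA-Gly-CCC-1-1 stood at 6725 ± 2583 CPM with DBP and 7100.1 ± 2067 CPM with DBP plus DEHP (log2 0.09, interval -0.42 to 0.61), and the CCC sum was 12473 ± 3434 and 13857 ± 2597 RPM. The faint copy tRNA-Gly-CCC-3-1, which met the criterion, held 10.5, 2.82, 1.80, 2.74, 13.5 and 5.07 CPM in DBP libraries 1 to 6 and 3.46, 1.28, 1.82, 2.27, 2.22 and 3.38 CPM in DBP plus DEHP libraries 1 to 6. The high DBP values came from libraries 1, 5 and 6, and the rest overlapped. Its log2 difference was -1.33 (interval -2.23 to -0.43, edgeR adjusted p = 0.999865), with -1.21 on lane 6 and -1.44 on lane 7, and it met the criterion in 6 of 12 fits that left out a library. tRNA-Gly-CCC-4-1 had nearly the same values (log2 -1.23, or -0.67 without libraries 5 and 6) and can share its reads. The third entry named for its p, tRNA-Asn-GTT-2-1, went from 3.22 ± 3.33 to 1.12 ± 0.367 CPM (log2 -1.35), with 9.17 CPM in DBP library 1. It met the criterion in 6 of 12 such fits.

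**Figure D4:**
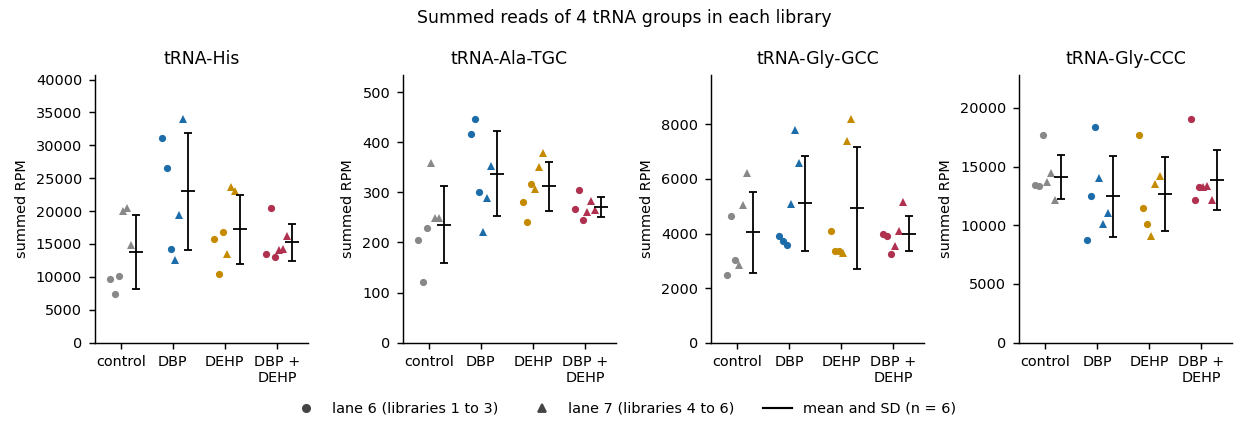
Summed level (RPM) of histidine, alanine TGC, glycine GCC and glycine CCC tRNA entries in every library of the 4 groups, with the group mean and SD beside the points. Histidine tRNA averaged 22985 RPM with DBP and 15256 RPM with DBP plus DEHP, while the glycine CCC sum was 12473 and 13857 RPM.

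Alanine tRNAs with anticodon TGC were lower for all 11 entries (median log2 -0.81), 6 of them at an unadjusted p under 0.05, beside 2.19% of all features. All anticodon groups, those of glycine included, were chosen after their values were seen. Their sum was 415, 446, 301, 219.9, 288 and 353 RPM in DBP libraries 1 to 6 and 266, 305, 246, 260.1, 283 and 265 RPM in DBP plus DEHP libraries 1 to 6. DBP libraries 1, 2 and 6 lay above every DBP plus DEHP library and DBP library 4 below them. On lane 6 all 11 were lower with a median of -1.23, and on lane 7, 6 of 11 were lower with a median of -0.10. Without DBP library 1, or without DBP library 2, 1 entry was at p under 0.05. The AGC and CGC anticodons of alanine had medians of 0.05 and 0.01. tRNA-Ile-AAT-1-1, of the isoleucine entries with most reads, held 28.2 ± 9.78 and 21.1 ± 3.09 CPM (log2 -0.42, interval -0.86 to 0.02).

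The tRNA with most reads, tRNA-Arg-CCG-3-1, held 242788, 234928, 134706, 141366, 64157 and 85890.2 CPM in DBP libraries 1 to 6 and 200439, 202512, 143337, 143199, 82121 and 88749 CPM in DBP plus DEHP libraries 1 to 6. In both groups libraries 1 and 2 were highest and libraries 5 and 6 lowest, and the log2 difference was -0.04 (interval -0.78 to 0.69). tRNA-Pro-TGG-1-1 had 26665 ± 16906 and 18898 ± 8055 CPM (log2 -0.45, interval -1.28 to 0.38). tRNA-Leu-TAG-3-1 leaned the other way, at 695 ± 193 and 978 ± 308 CPM (log2 0.50, interval -0.01 to 1.02). tRNA-Cys-GCA-15-1, named after its value was seen, was the sole tRNA entry higher at an unadjusted p under 0.05, at 1.59 ± 0.697 and 2.89 ± 0.698 CPM (log2 0.84, interval 0.14 to 1.54).

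piRNA entries, named for the guides of germline PIWI proteins, were evenly split, with 1041 of 2070 higher and a median log2 difference of 0.00. The most abundant criterion feature of the 6 classes was piR-mmu-6052502. It held 289.7, 281, 207, 234, 313 and 360.0 CPM in DBP libraries 1 to 6 and 170.4, 179, 159.7, 154, 189 and 236 CPM in DBP plus DEHP libraries 1 to 6. On lane 6 every DBP library was above every DBP plus DEHP library, and on lane 7 the sole exception was DBP library 4, just below DBP plus DEHP library 6. The log2 difference was -0.63 (interval -0.99 to -0.27, edgeR adjusted p = 0.999865), with -0.60 on lane 6 and -0.64 on lane 7.

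piR-mmu-8152914 was higher, from 0.559 ± 0.308 to 1.22 ± 0.470 CPM (log2 1.07, interval 0.42 to 1.73), and met the criterion in all 12 fits that left out a library. piR-mmu-7980244 and piR-mmu-8292186 had log2 differences of 0.89 and 1.01, and piR-mmu-5907003 and piR-mmu-3883007 of -0.80 and -0.75. The entry that leads the class, piR-mmu-30344366, had 142148 ± 74602 CPM with DBP and 96930.2 ± 46270.2 CPM with DBP plus DEHP. Its DBP libraries ran from 65987 to 276513 CPM, and the log2 difference of -0.55 had an interval of -1.33 to 0.23. piR-mmu-5890133 leaned higher, from 35414 ± 15744 to 47918 ± 23779.6 CPM (log2 0.45, interval -0.49 to 1.38).

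The small rRNA units printed above were lower with DBP plus DEHP, but the direction of the class depended on the scaling. Of 26 rRNA features 19 were lower, with a median log2 difference of -0.26, and with each class scaled on its own reads 15 were higher and the median was 0.09. Lane 6 gave a class median of -0.57 and lane 7 of 0.13. Gm23799, a unit of the rRNA gene type in GENCODE, held 2.38, 3.13, 1.16, 0.601, 1.88 and 3.95 CPM in DBP libraries 1 to 6 and 0.407, 0.427, 0.707, 0.611, 0.873 and 1.41 CPM in DBP plus DEHP libraries 1 to 6. DBP libraries 3 and 4 lay in the DBP plus DEHP range and the other 4 above it.

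Gm23799 had a log2 difference of -1.53 (interval -2.47 to -0.59, edgeR adjusted p = 0.999865), with -2.04 on lane 6 and -1.13 on lane 7. Gm23957, n-R5s155 and Gm26197, named after their values were seen, had log2 differences of -1.21, -0.88 and -0.83, each led by DBP library 2 at 22.7, 89.6 and 45.3 CPM, and on lane 7 they were 0.17, 0.07 and 0.13. With a shared run of 21 bases these units can share short reads. Over the 23 tested units of the rRNA gene type, taken here as 5S and 5.8S units or copies like them, 18 were lower (median log2 -0.30). At an unadjusted p under 0.05, 4 were lower, beside 2.19% of all features. That count was 1 without DBP library 2 and 7 without DBP library 4 or 6, and 6 without DBP library 5 or DBP plus DEHP library 3. With the class scaled on its own 12 of the 23 were higher, and without libraries 5 and 6 the median was -0.64. The transcript ENSMUST00000198477.2, which holds 97.0% of the rRNA reads of the DBP libraries and 96.9% of those with DBP plus DEHP, stood at 48167 ± 24911 and 44854 ± 9744 CPM (log2 -0.05, interval -0.63 to 0.53).

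circRNAs are closed loops spliced from exons of host genes, and a short read on such a reference could equally come from the linear transcript of its host gene. The reference hosted by Rai12 held 1.13, 2.04, 0.951, 1.47, 1.65 and 1.04 CPM in DBP libraries 1 to 6 and 0.813, 0.640, 0.808, 0.349, 0.672 and 0.846 CPM in DBP plus DEHP libraries 1 to 6. Every DBP library was above every DBP plus DEHP library. The log2 difference was -0.99 (interval -1.55 to -0.43, edgeR adjusted p = 0.999865), with -0.80 on lane 6 and -1.14 on lane 7, on 135 reads.

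The reference hosted by Vezt, which encodes a protein of adherens junctions, separated the groups as well, at 1.59 to 2.15 CPM with DBP and 0.808 to 1.32 CPM with DBP plus DEHP (log2 -0.81, interval -1.31 to -0.31). References hosted by Daglb (log2 -0.54) and Trrap (log2 -0.48) were lower and that of Trappc3 (log2 0.62) higher without overlap, at folds or p-values short of the criterion. Among criterion references, that of Trp53inp2 went from 2.21 ± 0.923 to 1.08 ± 0.601 CPM (log2 -1.08), but without libraries 5 and 6 its log2 difference was -0.36. That of Lingo2 went from 0.835 ± 0.388 to 1.98 ± 1.42 CPM (log2 1.19), with 4.23 and 3.29 CPM in DBP plus DEHP libraries 5 and 6, and was 0.33 without them. The references hosted by Zfp536 and Ncoa2, a nuclear receptor coactivator, were higher by 0.81 and 0.95 in log2. The reference with most reads, hosted by 2610528E23Rik, stood at 4788 ± 1783 and 5376 ± 1716 CPM (log2 0.18, interval -0.38 to 0.74).

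lncRNAs gave most of the higher criterion features, 14 of 25, from 1208 tested, where 0.335% of all 7454 features were higher past the criterion. The class as a whole was near evenly split, with 591 higher and 617 lower and a median log2 difference of -0.01. Among the 14, 4930524B17Rik, chosen after its values were seen, had 86 reads in DBP plus DEHP library 1. It had 2 to 16 reads in the other libraries of that group. Gm49007, an intergenic lncRNA at chr14:96924633-96992293 on the minus strand, had the smallest p of the 6 classes. It held 0.679, 0.940, 0.634, 1.07, 0.677 and 0.597 CPM in DBP libraries 1 to 6 and 1.83, 2.03, 1.41, 0.960, 1.48 and 1.32 CPM in DBP plus DEHP libraries 1 to 6. All DBP plus DEHP libraries but number 4 were above every DBP library. The log2 difference was 0.93 (interval 0.45 to 1.42, edgeR adjusted p = 0.999865), with 1.25 on lane 6 and 0.68 on lane 7.

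Gm16998, at chr10:54075922-54081081 on the plus strand, held 2.15, 1.88, 1.37, 2.07, 1.13 and 1.12 CPM in DBP libraries 1 to 6 and 3.56, 3.09, 3.74, 4.19, 2.08 and 7.70 CPM in DBP plus DEHP libraries 1 to 6. The groups touched only at DBP plus DEHP library 5, which lay between DBP libraries 1 and 4. Its log2 difference was 1.34 (interval 0.60 to 2.08, edgeR adjusted p = 0.999865), with 0.96 on lane 6 and 1.67 on lane 7. The transcript ENSMUST00000238482.1 separated the groups, at 0.226 to 0.969 CPM with DBP and 1.01 to 1.81 CPM with DBP plus DEHP (log2 1.27). Each of Gm49007, Gm16998 and this transcript met the criterion in all 12 fits that left out a library.

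Among the lower lncRNAs, 4930478P22Rik went from 1.10 ± 0.333 to 0.544 ± 0.304 CPM (log2 -1.07). The largest fitted fold, 7.79 for Gm10646 (chosen after its values were seen), came from a single library: DBP plus DEHP library 6 held 89.7 CPM and the other 5 held 1.21 to 1.75 CPM, within the DBP range of 0.951 to 2.26 CPM. Of 18 tested well-known lncRNAs 7 were higher and 0 had an unadjusted p under 0.05. Malat1, a nuclear speckle RNA, stood at 149.9 ± 20.4 and 140.2 ± 9.30 CPM (log2 -0.09, interval -0.43 to 0.24), and Neat1, the scaffold of paraspeckles, at 122 ± 33.9 and 103 ± 19.5 CPM (log2 -0.24, interval -0.78 to 0.30).

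**Figure D5:**
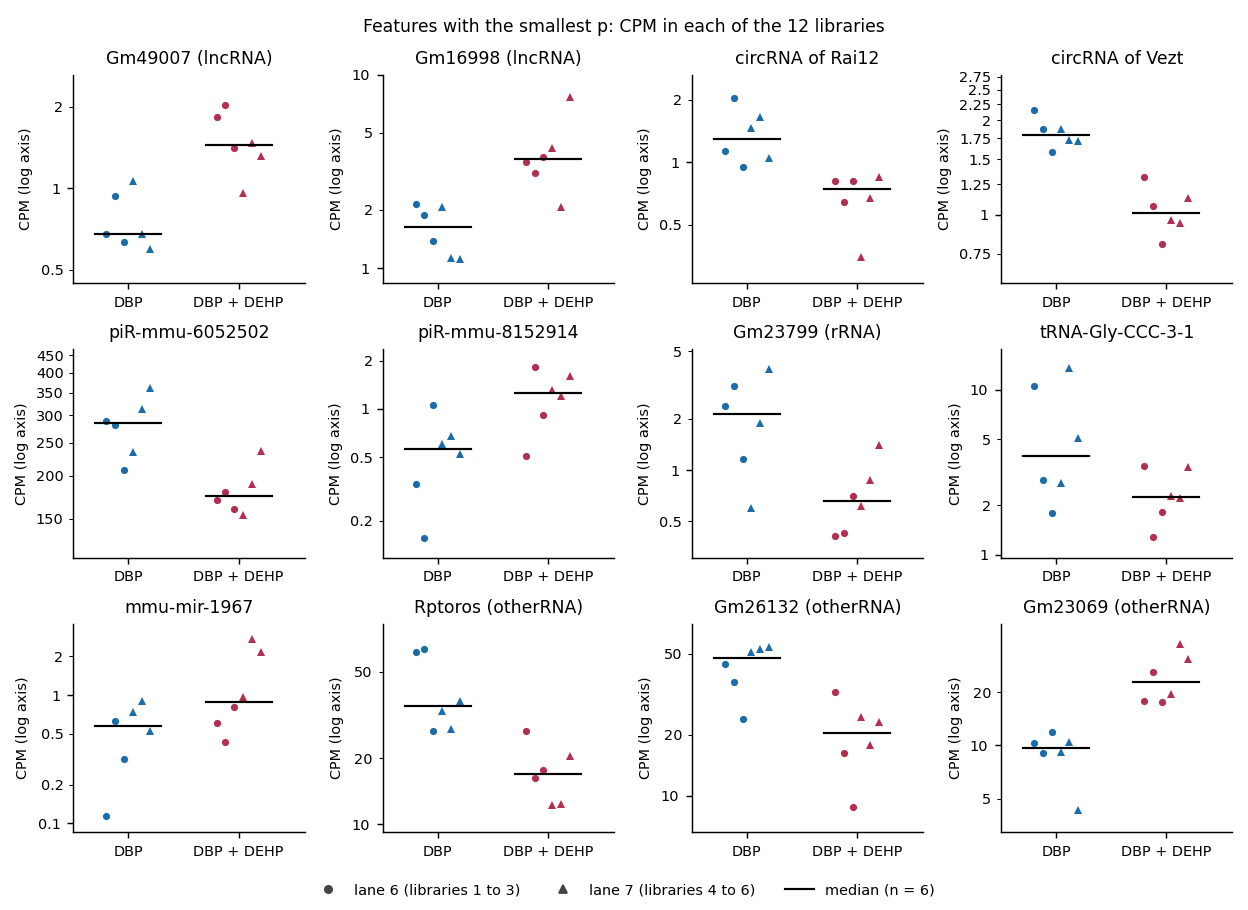
Level in CPM (log axis) of 12 named features in each DBP and DBP plus DEHP library, with the group median as a line. The circRNA references of Rai12 and Vezt, Rptoros and Gm23069 show no overlap between the groups, and the other features overlap.

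In otherRNA the smallest p belonged to Rptoros, annotated antisense on the minus strand of chr11:119820812-119834365. Scaled on otherRNA reads, it held 61.6, 63.5, 26.8, 33.0, 27.3 and 36.6 CPM in DBP libraries 1 to 6 and 26.6, 16.3, 17.7, 12.2, 12.4 and 20.5 CPM in DBP plus DEHP libraries 1 to 6. The groups did not overlap, although DBP library 3 and DBP plus DEHP library 1 were nearly level. The log2 difference was -1.19 (interval -1.80 to -0.58, edgeR adjusted p = 0.852712), with -1.27 on lane 6 and -1.12 on lane 7. The strand used in counting was not stated, so reads of Rptoros, Rab10os, Gm16794 and other antisense genes cannot be told from those of the genes opposite.

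Rab10os went from 59.1 ± 6.58 to 39.2 ± 9.03 CPM (log2 -0.61) without overlap, and 5430402O13Rik, named after its value was seen, from 25.9 ± 5.03 to 12.4 ± 2.60 CPM (log2 -1.05), also without overlap. Gm23069, a unit of the miscellaneous RNA biotype, held 4.31 to 11.9 CPM with DBP and 17.7 to 37.2 CPM with DBP plus DEHP (log2 1.48, interval 0.55 to 2.40), on 82 reads. 2900052L18Rik went from 73.1 ± 10.6 to 114 ± 35.1 CPM (log2 0.65) and Gm16794 from 100.4 ± 24.2 to 166 ± 45.7 CPM (log2 0.73). Platr21 was lower without overlap (log2 -0.40), short of the fold of the criterion.

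snoRNAs guide the chemical modification of rRNA and other small RNAs. Gm26132, printed above, held 44.5, 36.3, 23.8, 51.3, 52.5 and 53.9 CPM in DBP libraries 1 to 6 and 32.6, 16.3, 8.83, 24.4, 17.7 and 23.1 CPM in DBP plus DEHP libraries 1 to 6. DBP library 3 lay inside the DBP plus DEHP range and the other DBP libraries were above it. The log2 difference was -1.09 (interval -1.70 to -0.48, edgeR adjusted p = 0.852712), and it met the criterion in all 12 fits that left out a library. Of 31 tested H/ACA box snoRNAs, the Snora genes, 18 were lower, with 5 lower and 1 higher at an unadjusted p under 0.05 against 2.28% lower and 3.08% higher over all otherRNA. The count of lower ones ran from 1 without DBP plus DEHP library 4 to 7 without DBP library 4, and was 2 to 4 without any of the other libraries. The median log2 difference was -0.15, and without libraries 5 and 6 it was -0.36 with 2 lower at that p and 0 higher. Snora5c (log2 -1.11) met the criterion and Snora24 was the higher one (log2 0.88, or 0.42 without libraries 5 and 6), both named after their values were seen. Snora73b ran from 259 to 2614 CPM with DBP and 182 to 5156 CPM with DBP plus DEHP, with its highest values in libraries 5 and 6 of both groups.

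Of 56 C/D box snoRNAs, the Snord genes, 43 were lower (median log2 -0.17) and 0 had an unadjusted p under 0.05, and on lane 6 the median was 0.07. Without DBP library 6 their median was -0.01, and without DBP plus DEHP library 4 it was -0.03. Mitochondrial tRNAs were lower for 8 of 10 (median log2 -0.25), with 0.42 on lane 6, -1.13 on lane 7 and -0.09 without libraries 5 and 6. Among them mt-Tt, the threonine tRNA, was led by DBP libraries 5 and 6 at 197 and 194 CPM. The RNase P and MRP RNAs, which process tRNA and rRNA precursors, were lower for 5 of 5 (median log2 -0.41) with 0 at an unadjusted p under 0.05. Of 17 spliceosomal snRNAs 8 were higher, with a median of 0.42 on lane 6, -0.40 on lane 7 and 0.37 without libraries 5 and 6. The 7SL RNAs that lead otherRNA, Rn7s2 and Rn7s1 of the signal recognition particle, had log2 differences of 0.04 and 0.05 (intervals -0.45 to 0.53 and -0.45 to 0.55).

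The difference that went with DEHP on top of DBP was also set against the one that went with DEHP in mice without DBP, that is DEHP minus vehicle control. These contrasts share no library, and the test of the difference between them found 0 of 7454 features at an adjusted p under 0.05 (0 with DESeq2 and 0 with voom), with 301 (4.04%) at an unadjusted p under 0.05 and 32 (0.429%) past the criterion. The counts at an unadjusted p and past the criterion depended on single libraries. They were 537 and 70 without control library 4, and 258 and 23 without DBP library 1. With voom they were 392 and 50. DEHP minus control had 29 features (0.389%) past the criterion. Of the 47 criterion features, 23 had the same sign without DBP. The criterion was also met there by 2 of the 47, counted whichever sign they had. Of the 31 in otherRNA, 10 had the same sign and 0 met it.

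The contrasts leaned in opposite directions in the tRNA class when all 24 libraries were fitted. Without DBP library 2 the median of DBP plus DEHP minus DBP reached 0.01. DEHP minus control was not fitted by lane or with a library left out. DEHP minus control had 269 of 340 tRNA entries higher (median log2 0.17), where DBP plus DEHP minus DBP had 226 lower. The difference between the contrasts was negative for 276 of 340 entries (median log2 -0.31), with 27 at an unadjusted p under 0.05, all negative, and 0 after adjustment. That is 7.94% of the entries, against 4.04% of all features for both signs together. Over all 7454 features 159 were negative at that p. For histidine tRNA the medians were 0.20 without DBP and -0.69 on top of it, and for alanine TGC 0.29 and -0.81. The summed histidine level of the controls differed by lane, at 7336 to 10061 RPM on lane 6 and 14874 to 20442 RPM on lane 7. With DEHP alone it was 10488.5 to 16759 RPM on lane 6 and 13545 to 23701 RPM on lane 7.

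The smallest p for the difference between the contrasts was that of the circRNA reference hosted by Dennd2a. It stood at 0.554 CPM in controls, 1.24 CPM with DEHP, 0.942 ± 0.195 CPM with DBP and 0.494 ± 0.207 CPM with DBP plus DEHP. Its log2 difference was 1.15 without DBP and -0.90 on top of it, which differ by -2.06 (edgeR adjusted p = 0.345). The lncRNA Gm15907 followed the same order (0.75 and -0.58). In the other direction, piR-mmu-2004057 had -0.59 and 0.39 and piR-mmu-8735410 had -0.44 and 0.45.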

How the data were processed

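Small RNA from cauda epididymosomes was isolated with an exoRNAeasy Midi kit and sequenced with a Clontech SMARTer smRNA kit, per the labels' protocols. The counts deposited by the authors are whole reads per reference sequence in 7 tables a library. Adapters were trimmed with cutadapt and reads aligned with STAR 2.7.6a, per the submitters' processing notes, and classes were searched in the order miRNA, tRNA fragments, piRNA, rRNA, circRNA, lncRNA, per the labels. Build, annotation, counting strand and the treatment of reads with several matches are not stated in the labels or file headers. Identifiers were matched to GENCODE M21 on GRCm38 (96.1% of lncRNA, 99.2% of rRNA and 98.0% of otherRNA entries). A read matched in an earlier class was not open to a later one, so class shares depend on that order.

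Features of 6 classes were joined and fitted in edgeR 4.0.16 (R 4.3.3; TMM scaling, filterByExpr on group, glmQLFit and glmQLFTest) over all 24 libraries with group and lane as terms, and otherRNA was fitted apart. P-values are two-sided and adjusted by Benjamini-Hochberg over all features tested. DESeq2 1.42.0 and limma 3.58.1 were alternatives, and scripts were tested on simulated data. Class shares used Python 3.11.15 with scipy 1.17.1. Intervals on log2 differences had a median half-width of 0.62, and libraries differed by more than counting noise (chi-square per degree of freedom of at least 33.1 in every pair). Libraries were grouped by treatment label, and no library was left out of the main tests.

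Features were named as the 3 with the smallest p past the criterion per class and direction, the 3 with most reads per class (hairpin and mature miRNAs apart), the 2 with most reads of each list, and the 2 per direction with the smallest p for the difference between DEHP contrasts. Others are said to be chosen after their values were seen. The comparison, the members and the lists were chosen with earlier results of these data known.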

Additional observations from a re-analysis of the deposited data

Results flagged for a closer look

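Of 128 groups of 6 libraries examined, 6 held a library whose gap to its nearest neighbour was above Dixon's 95% critical value as a share of the group's range, and chance gives about 1 in 20. tRNA-Glu-CTC-1-9 stood at 15587 CPM in DBP library 2 against 4021 to 7888 CPM in the other DBP libraries. piR-mmu-398716 stood at 55353 CPM in DBP library 2 against 11627 to 23567 CPM. The mitochondrial rRNA mt-Rnr1 stood at 555 CPM in DBP library 5 against 34.5 to 172 CPM. Gm16998 stood at 7.70 CPM in DBP plus DEHP library 6 against 2.08 to 4.19 CPM. Gm23069 stood at 4.31 CPM, scaled on otherRNA reads, in DBP library 6 against 9.08 to 11.9, and Rab10os at 71.9 in DBP library 1 against 54.5 to 60.3. Without the library in question Gm16998 was still past the criterion, as it was in each of the 12 fits that left out a library.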

How the results depend on the processing

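The count of features at an adjusted p under 0.05 was 0 under every scaling, tool and set of libraries tried, except with no filter on low counts, where 17 of 60115 features passed (14 higher, 3 lower; all 17 were among the features tested above, with adjusted p of 0.999865 or more there) and 20 passed for the difference between the DEHP contrasts. Leaving out a library in turn kept these counts at 0 to 0. The criterion count was 484 with no filter (90 in otherRNA) and 17 in otherRNA when only DBP and DBP plus DEHP libraries entered the fit. Leaving out a library gave 32 to 73 features, the highest without DBP plus DEHP library 4, and 16 to 65 in otherRNA: 16 without DBP library 1, 19 without DBP plus DEHP library 6, 50 without DBP library 4, 51 without DBP plus DEHP library 2 and 65 without DBP plus DEHP library 4. Gm10646 reversed sign on lane 6, where its log2 difference was -0.13, and without libraries 5 and 6, where it was -0.12; the library at 89.7 CPM is absent from both. The cause of the other changes was not tested. Same-numbered libraries had correlated deviations (r = 0.042 to 0.631, over 0.1 in 5 of 6 pairs), and 2 of 6 DBP plus DEHP libraries correlated best with their own number, so they were not treated as pairs; with replicate number as a block the count at an adjusted p under 0.05 was 0 and the criterion count 46, or 43 in otherRNA. Of the class shares, none passed p under 0.05 in any alternative; leaving out a library moved tRNA between -1.91 and 1.32 points and piRNA between -1.53 and 1.14. Depth limits the faint entries: 25 of 47 criterion features had means under 2 CPM in both groups.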
